A study of Rattus norvegicus with 6 samples.

Results

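Fatty acid oxidation and ketone body production were examined in livers after transplantation of faecal microbiota from donors given DHEA or PBS, through 30 genes chosen by name. They cover the carnitine shuttle, mitochondrial and peroxisomal β-oxidation, electron transfer from the acyl-CoA dehydrogenases, ketone body enzymes and a pair of regulators. Of the 30 names, 28 matched a gene among the 30957 in the deposited table, on 13 chromosomes, and all 28 passed the filter on low counts. Eci2 and Acot1 matched no gene by that name or by an older symbol and were not analysed here.

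Liver mRNA was sequenced from 3 rats of the t-PBS group and 3 rats of the t-DHEA group, 1 liver per rat. All were female Sprague Dawley rats bought at 3 weeks of age, kept at 2 per cage on standard feed. Both groups were first made pseudo germ-free with ampicillin, neomycin, metronidazole and vancomycin in the drinking water, in courses over 27 days, and were then gavaged daily for 14 days with pooled faecal microbiota. The donors of the t-DHEA group were injected with dehydroepiandrosterone (DHEA), an androgen precursor that induces traits of polycystic ovary syndrome in rats. The injections lasted 35 days in all, the last 14 of them during the transplantation. The donors of the t-PBS group were injected with PBS, whereas the recipients were given no injections of DHEA themselves. The paper states that DHEA sulfate in the transplant passed to recipients along with the microbiota, at levels it describes as very low. It also reports significantly more DHEA sulfate in faeces of the donors given DHEA than of those given PBS. It did not detect DHEA itself in the donor faeces. The comparison asks whether microbiota shaped by an androgen alter hepatic gene expression in the recipient. Because the faecal pellets were pooled, the 3 livers of a group share their donor material, so that the spread between them is the spread between recipients. The age at sacrifice, the hour of liver collection and the fasting state are not given in the sources used here.

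In the liver, long-chain fatty acids enter mitochondria as carnitine esters. Each round of β-oxidation then removes a unit of acetyl-CoA through a dehydrogenation, a hydration, a second dehydrogenation and a thiolysis. Peroxisomes shorten very long chains by a parallel route, and acetyl-CoA in excess is turned into ketone bodies for export during fasting. Many of these genes are targets of the nuclear receptor PPARα.

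Total counts on genes were between 13031722 and 14316886 in t-PBS livers and between 12348511 and 13529414 in t-DHEA livers. The smallest count of any of the 28 genes in any liver was 29, and their means over the livers ran from 3.69 to 497 CPM (counts scaled to a library of standard size, normalised for library size and composition). Hepatocyte markers were all detected (8 of 8, summed level 128370.4 to 140252 CPM in t-PBS and 130244 to 156414 CPM in t-DHEA livers). The median log2 difference of the 8 was 0.094, and 2 met the criteria given below, both upwards. Tat was among these 2 and is counted again with the fasting genes below. Markers of other cells moved with the groups in places. The 5 mesothelial markers tested were lower in t-DHEA livers in every case, with a summed level of 24.6 to 27.1 CPM in t-PBS and 1.72 to 12.5 CPM in t-DHEA livers for the whole list of 6, and 4 of them met the criteria. Red blood cell markers summed to 185 to 284 CPM in t-PBS and 304 to 589.8 CPM in t-DHEA livers, with 3 of 5 tested meeting the criteria upwards. Stellate cell markers summed to 560.5 to 727 CPM and 461 to 543 CPM, with 2 of 7 meeting the criteria downwards, and bile duct markers to 18.9 to 23.6 CPM and 9.50 to 17.1 CPM, with 2 of 5 tested meeting them downwards. Kupffer cell markers (495 to 594 CPM against 525 to 714 CPM) and lymphocyte markers (21.5 to 25 CPM against 16.8 to 24.0 CPM) overlapped between the groups, and so did endothelial markers, of which 1 of 6 met the criteria upwards. Of the adipocyte markers, Adipoq, Plin1, Lep and Ucp1 had no count in any liver. In tissue RNA, fewer cells of a type and less RNA per cell cannot be told apart.

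None of the 28 genes differed between the groups by the criteria of the study, with edgeR's quasi-likelihood test on the counts. These criteria were a fold-change of more than 1.2 together with a p, not adjusted, under 0.05. Among all 12210 genes tested, 4.95% met them, so that the count of 0 among 28 genes is read against a low background. None of the 28 genes had an unadjusted p below 0.05 either, against 5.19% of all genes, and the lowest, 0.0705, was that of Cpt1a. After Benjamini-Hochberg adjustment over all genes the lowest value among the 28 was 0.970, and 0% of all genes were below 0.05. DESeq2 also placed 0 of the 28 within the criteria, against 2.65% of the genes it tested, and so did edgeR's likelihood-ratio test (4.98% of all genes) and a fit with the replicate number as a block (4.41%).

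The fitted log2 differences (t-DHEA minus t-PBS) were positive for 15 of the 28 genes and negative for 13. They ran from -0.47 for Pdk4 to 0.19 for Crot, with a median of 0.042 beside 0.0013 over all genes tested. Their standard errors had a median of 0.125, smaller than the 0.154 of all genes, and the 95% intervals of 23 genes lay within a 1.5-fold change in either direction. For 3 genes the interval lay within 1.2-fold. The intervals of Crat, Crot, Eci1, Pdk4 and Ppargc1a reached beyond 1.5-fold, and those of Crat and Pdk4 beyond 2-fold. For most of the genes the data thus allow a change of less than 1.5-fold, and for these 5 a larger one. The values of the 2 groups did not overlap in 1 of the 28 genes (Echs1), against 10.1% of all genes. With 3 livers against 3, a two-sided exact permutation test of a single gene cannot go below 0.1.

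**Figure D1:**
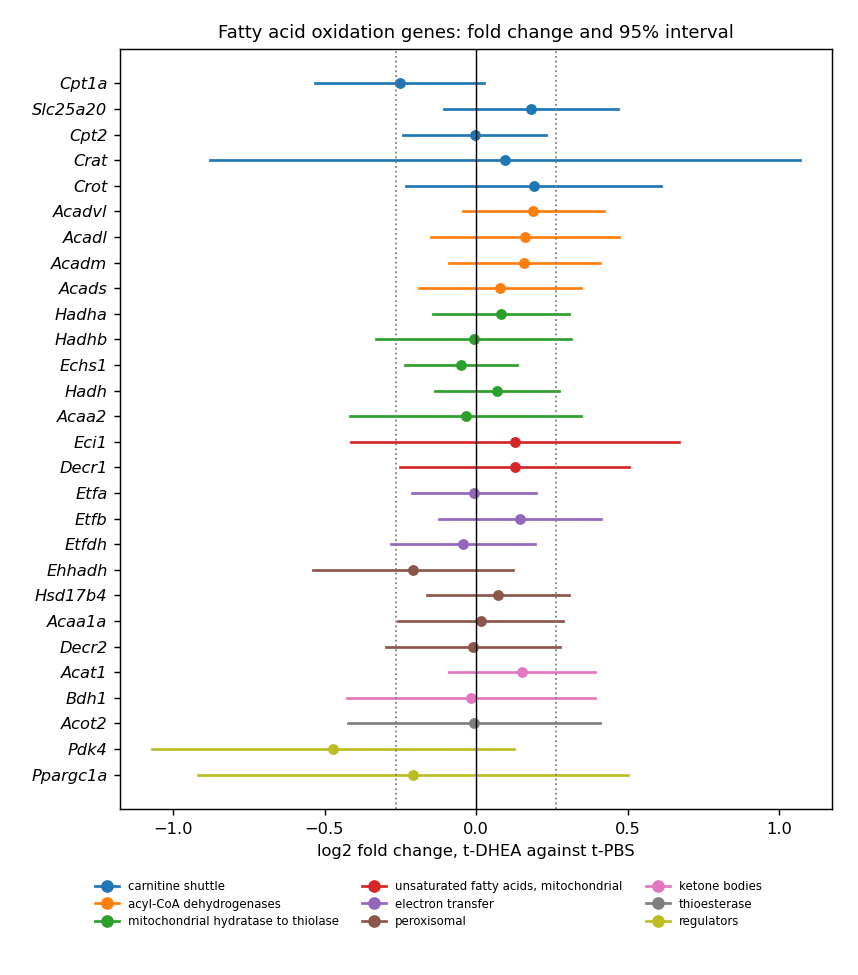
Fitted log2 fold change of each of the 28 genes, t-DHEA against t-PBS (points), with 95% intervals (lines), coloured by role; the dotted lines mark a 1.2-fold change. Every interval includes 0, the point furthest to the left is Pdk4 at -0.47, and the widest interval is that of Crat.

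Levels were compared between genes per length, as FPKM (fragments per kilobase of gene model, scaled to the library total). The dehydrogenase of medium-chain acyl-CoA, Acadm, was at the top in both groups with 243 ± 10.7 FPKM in t-PBS and 265 ± 24.5 FPKM in t-DHEA livers (SD, n = 3), and its long-chain relative Acadl followed with 239.6 ± 8.97 and 261 ± 48.8 FPKM. These neighbours did not differ beyond their spread. Both subunits of the electron transfer flavoprotein came next, Etfb with 194 ± 21.3 and Etfa with 164 ± 8.64 FPKM in t-PBS livers. Cpt1a, which encodes the outer-membrane carnitine palmitoyltransferase and is regarded as the rate-limiting step of the pathway, ranked 21 of 28 with 53.7 ± 3.27 and 43.9 ± 6.74 FPKM. At the lower end were Crat (16.7 ± 6.09 FPKM in t-PBS livers), Decr2 (12.1 ± 1.47 FPKM), Acot2 (11.2 ± 1.64 FPKM) and the transcriptional coactivator Ppargc1a (1.47 ± 0.462 FPKM). Decr2 and Acot2 did not differ beyond their spread, while Ppargc1a was below every other gene in all 6 livers.

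**Figure D2:**
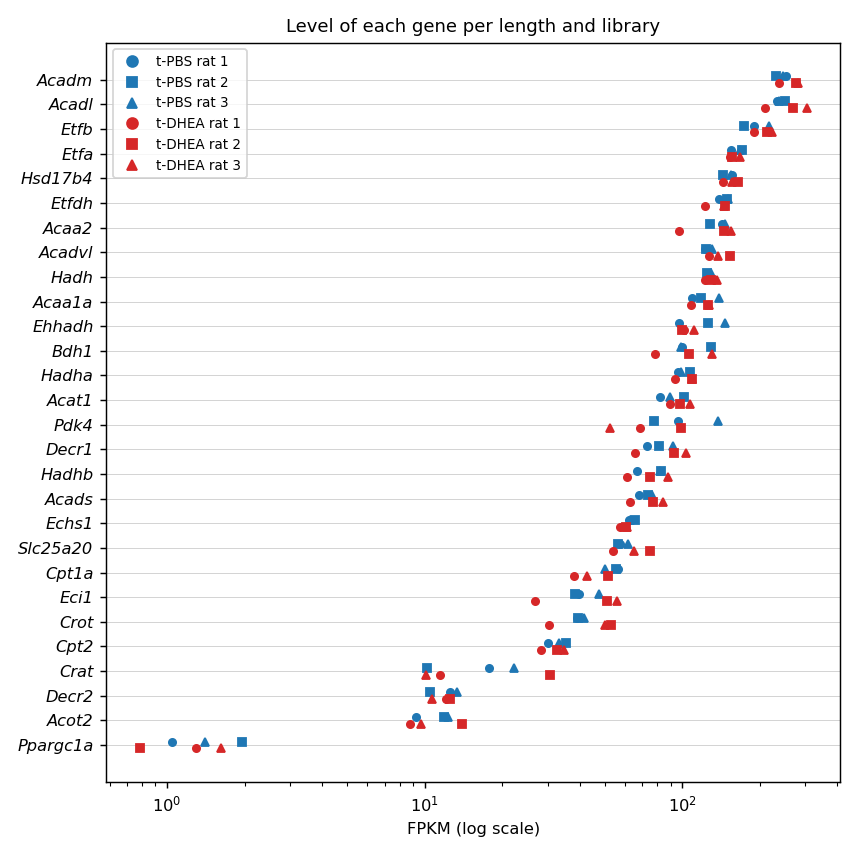
FPKM of each of the 28 genes in each of the 6 livers on a log scale, ordered by mean level; t-PBS livers are blue, t-DHEA livers red, and the marker shape gives the rat. Acadm and Acadl are at the top with group means between 239.6 and 265 FPKM, and Ppargc1a is at the bottom with 1.47 and 1.23 FPKM.

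The carnitine shuttle comprised Cpt1a, the carrier Slc25a20, the inner-membrane transferase Cpt2 and the acetyl and octanoyl transferases Crat and Crot. Cpt1a (ENSRNOG00000014254, chr1:218569510-218629678 in Rnor_6.0) was at 243, 229 and 216 CPM in t-PBS rats 1, 2 and 3 and at 168, 224 and 186 CPM in t-DHEA rats 1, 2 and 3. The group means were 229.7 ± 13.6 and 193 ± 29.0 CPM (SD, n = 3), and the groups overlapped only through t-DHEA rat 2, which lay above t-PBS rat 3. The log2 difference was -0.25 ± 0.12 (SE) with a 95% interval of 0.692 to 1.02 as a fold, so that it crossed no change narrowly and reached past the 1.2-fold threshold on the lower side. With edgeR's quasi-likelihood test Cpt1a had the lowest unadjusted p of the set (0.0705), and its call depended on the processing. It met the criteria when libraries were scaled by their totals alone (log2 difference -0.29, adjusted p = 0.889 in edgeR), in limma on log2(FPKM + 0.1) (-0.30, adjusted p = 0.892) and on log2(FPKM + 1) (-0.29, adjusted p = 0.881), and when t-DHEA rat 2 was left out (-0.37, adjusted p = 0.968). In those settings 5.14%, 5.02%, 4.4% and 4.84% of all genes tested met the same criteria.

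Slc25a20, which exchanges acylcarnitine for free carnitine across the inner membrane (ENSRNOG00000020288, chr8:117455262-117476734), was at 102, 95.6 and 109 CPM in t-PBS and at 97.2, 134 and 117 CPM in t-DHEA rats 1 to 3. The highest values were those of t-DHEA rats 2 and 3, and t-DHEA rat 1 lay among the t-PBS livers (log2 difference 0.18 ± 0.13). Cpt2 (ENSRNOG00000012443, chr5:127505614-127523089) was at 72.7, 81.6 and 79.8 CPM and at 69.3, 79.4 and 84.4 CPM, with overlapping ranges and the tightest interval of the shuttle, 0.847 to 1.17-fold. Crot had the highest fitted value of the 28 genes, at 155 ± 7.04 CPM in t-PBS and 177 ± 48.5 CPM in t-DHEA livers, and its t-DHEA values were split, with rat 1 at 122 CPM below all t-PBS livers and rats 2 and 3 at 211 and 199 CPM above them. Crat was the most variable gene of the set. Its values ran from 23.8 to 54.0 CPM in t-PBS and from 25 to 75.7 CPM in t-DHEA livers, and the interval of its fold, 0.545 to 2.10, allowed a change in either direction.

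**Figure D3:**
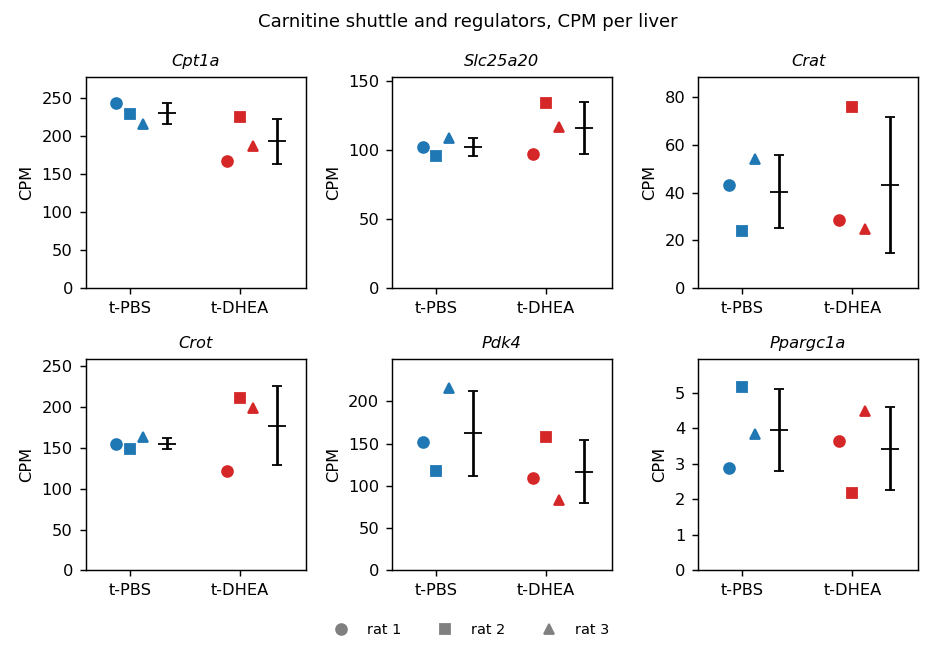
CPM per liver of 4 genes of the carnitine shuttle and of the regulators Pdk4 and Ppargc1a, with the group mean and SD (black, n = 3); each panel starts at 0. Cpt1a is at 216 to 243 CPM in t-PBS and 168 to 224 CPM in t-DHEA livers, and Crat and Pdk4 scatter widely in both groups.

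The 4 acyl-CoA dehydrogenases, which open each round on chains of different lengths, all had positive fitted values, from 0.078 for the short-chain enzyme Acads to 0.19 for the very-long-chain enzyme Acadvl (median 0.16), and none met the criteria. Acadm (ENSRNOG00000009845, chr2:260124418-260148589) was at 494, 434 and 481 CPM in t-PBS and at 472, 546 and 556 CPM in t-DHEA rats 1 to 3. Acadl (ENSRNOG00000012966, chr9:73833388-73871888) was at 342, 351 and 346 CPM and at 311, 399 and 451 CPM. In both genes t-DHEA rats 2 and 3 lay above all t-PBS livers and t-DHEA rat 1 did not, so that the groups overlapped through that rat. The intervals as folds were 0.941 to 1.33 for Acadm and 0.902 to 1.39 for Acadl. Acadvl was at 269.9 ± 12.1 and 308 ± 27.8 CPM.

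The later steps of the mitochondrial cycle were close to equal in the groups. Hadha and Hadhb encode the α and β subunits of the mitochondrial trifunctional protein, which carries out the last 3 reactions on long chains. In the RefSeq promoter table of build GRCr8 they lie head to head on chromosome 6, with start sites 301 bases apart, so that the 250 bases before each start site share 200 bases read on opposite strands. These promoters are shown because the genes form a divergent pair whose products form a single complex. In the deposited Rnor_6.0 coordinates Hadhb ends at 27582995 and Hadha starts at 27589657, further apart than in GRCr8. The gene models counted here therefore need not begin at the start sites shown. Capitals mark GC boxes (GGGCGG on either strand), of which 1 is shared by both windows.
Hadha, chr6:31907551-31907800, plus strand: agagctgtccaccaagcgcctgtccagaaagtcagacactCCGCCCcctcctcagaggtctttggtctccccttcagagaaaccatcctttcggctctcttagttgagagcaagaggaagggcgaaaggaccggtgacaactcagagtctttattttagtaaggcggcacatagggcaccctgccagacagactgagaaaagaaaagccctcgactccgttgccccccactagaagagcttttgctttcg
Hadhb, chr6:31907501-31907750, minus strand: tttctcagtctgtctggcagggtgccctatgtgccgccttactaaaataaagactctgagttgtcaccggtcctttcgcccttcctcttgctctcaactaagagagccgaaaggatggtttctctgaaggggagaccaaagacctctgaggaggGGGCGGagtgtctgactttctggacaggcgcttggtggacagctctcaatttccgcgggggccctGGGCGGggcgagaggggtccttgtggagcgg

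Hadha (ENSRNOG00000024629, chr6:27589657-27629175 in Rnor_6.0) was at 285, 305 and 290.1 CPM in t-PBS rats and at 283, 324 and 324 CPM in t-DHEA rats. Hadhb (ENSRNOG00000010800, chr6:27555412-27582995) was at 150.4, 179.9 and 184 CPM and at 141, 171 and 199.7 CPM. The ranges overlapped for both, and t-DHEA rat 1 was the lowest liver of the 6 for each. The ratio of Hadha to Hadhb in FPKM was 1.32 ± 0.124 in t-PBS and 1.41 ± 0.150 in t-DHEA livers (SD, n = 3), between 1.21 and 1.53 over the livers, so the difference between the groups was within their spread.

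Of the other members of this step, Hadh, the short-chain hydroxyacyl-CoA dehydrogenase, had a log2 difference of 0.07 ± 0.090 and the thiolase Acaa2 of -0.03 ± 0.17. Echs1, the short-chain enoyl-CoA hydratase (ENSRNOG00000018522, chr1:212570195-212579057), was the gene whose groups did not overlap, at 93.5, 94.2 and 93.9 CPM in t-PBS and 87.7, 91.9 and 92.6 CPM in t-DHEA rats. All 3 t-DHEA livers were below all t-PBS livers, yet by little: the log2 difference was -0.05 ± 0.081 (adjusted p = 0.990 with edgeR). The t-PBS values spanned less than 1 CPM, and Echs1 overlaps 608 bases of Paox (13.3 CPM), from which its reads may not be separable without knowledge of the strand. Eci1 and Decr1, the isomerase and reductase that prepare unsaturated chains, had log2 differences of 0.13 ± 0.24 and 0.13 ± 0.17. In Eci1 t-DHEA rat 1 was at 40.3 CPM, below all t-PBS livers, and t-DHEA rats 2 and 3 were at 76.0 and 83.2 CPM, above all of them.

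Electrons from the first dehydrogenation pass to the flavoprotein of Etfa and Etfb and on to the respiratory chain through Etfdh. The log2 differences were -0.01 ± 0.091, 0.15 ± 0.12 and -0.04 ± 0.10, and the 95% interval of Etfa, 0.863 to 1.15-fold, was one of the 3 within 1.2-fold. Intervals of this width were found also for Echs1 (0.851 to 1.10-fold) and Cpt2.

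Among the peroxisomal genes, Ehhadh, the bifunctional enzyme that hydrates and dehydrogenates enoyl-CoA (ENSRNOG00000001770, chr11:82945104-82978364), was at 302, 376 and 452 CPM in t-PBS and at 319.5, 312 and 347 CPM in t-DHEA rats. The t-PBS livers spanned a wider range than the t-DHEA livers, which lay inside it, and the log2 difference was -0.21 ± 0.15. Without t-PBS rat 1, the lowest liver, it was -0.34 (adjusted p = 0.996 with edgeR) and met the criteria, as 4.49% of all genes did in that fit. Hsd17b4, the bifunctional enzyme for branched chains and bile acid intermediates, the thiolase Acaa1a and the reductase Decr2 had log2 differences of 0.07, 0.01 and -0.01 with standard errors of 0.10 to 0.13.

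The thiolase Acat1 condenses acetyl-CoA on the way to ketone bodies, and Bdh1 interconverts acetoacetate and β-hydroxybutyrate. Acat1 (ENSRNOG00000007862, chr8:58166990-58195884) was at 180.1, 212 and 195 CPM in t-PBS and at 199, 218 and 236 CPM in t-DHEA rats. Its groups overlapped through t-PBS rat 2, and the interval of its fold was 0.939 to 1.31. Bdh1 (ENSRNOG00000001736, chr11:72578533-72614176) was at 225, 281 and 223 CPM and at 180.1, 242 and 298 CPM, so that both the lowest and the highest liver were of the t-DHEA group. Its log2 difference of -0.02 ± 0.18 had an interval of 0.745 to 1.31-fold.

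Of 10 further genes of ketone body metabolism and transport, 9 were tested, 6 with positive and 3 with negative fitted values (median 0.024), and 3 met the criteria. The monocarboxylate transporter Slc16a7 was at 29.7, 28.2 and 32.8 CPM in t-PBS and at 37.9, 33.1 and 37.9 CPM in t-DHEA rats, with no overlap (log2 difference 0.26 ± 0.11, adjusted p = 0.957 with edgeR). The mitochondrial acetyl-CoA synthetase Acss1 was low in all livers, at 2.45, 3.02 and 2.79 CPM and at 1.98, 2.02 and 1.62 CPM, again with no overlap (-0.55 ± 0.24, adjusted p = 0.957). Bdh2, a cytosolic dehydrogenase, was at 5.82, 5.75 and 7.40 CPM and at 5.70, 10.7 and 13.0 CPM, with t-DHEA rat 1 below all t-PBS livers (0.64 ± 0.28, adjusted p = 0.957). None of these calls was firm: leaving out any one of the 6 livers ended the call of Acss1 (log2 difference -0.63 to -0.23 over all alternatives), and leaving out 1 of 4 livers ended those of Slc16a7 (0.20 to 0.33) and Bdh2 (0.39 to 0.90). These livers were t-PBS rats 1 and 2 for both genes, with t-DHEA rats 1 and 3 for Slc16a7 and t-DHEA rats 2 and 3 for Bdh2. With all 6 livers, the calls of Slc16a7 and Acss1 were also lost in DESeq2, and 1 of the 9 genes met the criteria there. The calls of Slc16a7 and Bdh2 were lost with library totals only and in both limma fits. That of Slc16a7 was lost too in the likelihood-ratio test and with a filter of 10 counts in every liver. That of Acss1 was lost without a filter, in limma on log2(FPKM + 1) and with the replicate block.

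**Figure D4:**
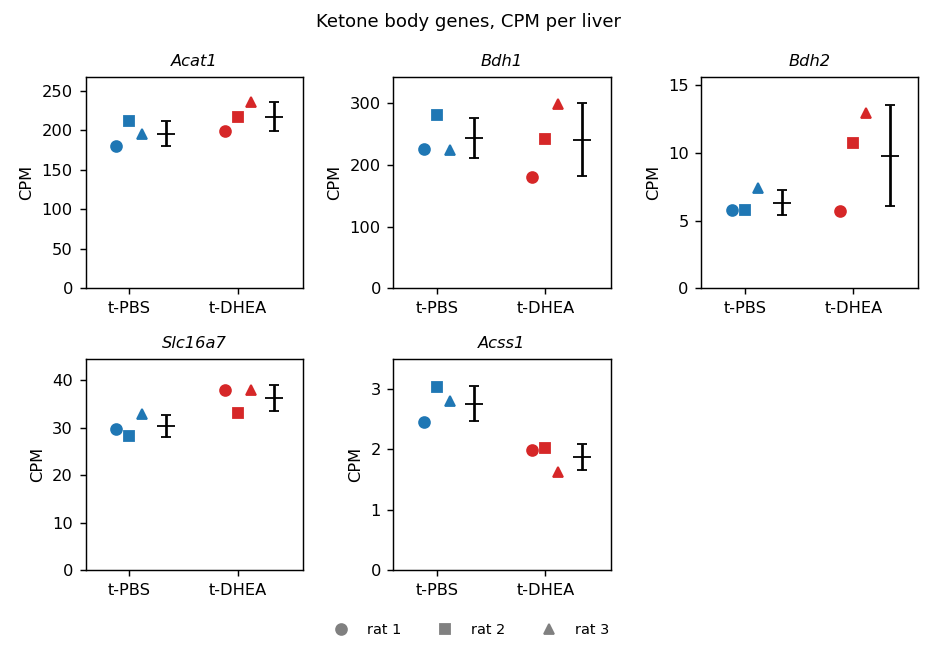
CPM per liver of 5 genes of ketone body metabolism, with the group mean and SD (black, n = 3); each panel starts at 0. Acat1 and Bdh1 overlap between the groups, Slc16a7 (28.2 to 32.8 against 33.1 to 37.9 CPM) and Acss1 (2.45 to 3.02 against 1.62 to 2.02 CPM) do not, and in Bdh2 t-DHEA rat 1 lies with the t-PBS livers.

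The thioesterase Acot2, which splits acyl-CoA inside mitochondria, was at 26.2 ± 3.65 and 26.0 ± 6.59 CPM. It belongs to a family of near-identical copies and overlaps 374 bases of Heatr4, so its counts are uncertain.

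Pdk4 and Ppargc1a, the regulators of the set, both had negative fitted values. Pdk4 phosphorylates pyruvate dehydrogenase and thereby spares glucose when fatty acids are burnt. It was at 152, 117 and 216 CPM in t-PBS and at 109.6, 157 and 83.2 CPM in t-DHEA rats (ENSRNOG00000009565, chr4:30546664-30556814). This was the lowest fitted value of the 28 genes, -0.47 ± 0.26, but the ranges of 117 to 216 CPM and 83.2 to 157 CPM overlapped, and the interval of the fold was 0.477 to 1.09. Its call depended on single rats, and with all livers its unadjusted p in DESeq2 was 0.0505. The criteria were met without t-PBS rat 2 (-0.65, adjusted p = 0.998 with edgeR, where 4.15% of all genes met them) and without t-DHEA rat 2 (-0.74, adjusted p = 0.971), while without t-PBS rat 3 the difference was -0.21. Ppargc1a, a coactivator of mitochondrial and gluconeogenic genes (ENSRNOG00000004473, chr14:63095720-63187009), had 41, 70 and 51 counts in t-PBS and 44, 29 and 58 counts in t-DHEA rats, or 2.87 to 5.16 and 2.17 to 4.48 CPM. At this depth its interval of 0.529 to 1.41-fold was among the widest.

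A further 26 regulators of the pathway were all tested, 8 with positive and 18 with negative fitted values (median -0.047). Of these, 1 met the criteria, beside 4.95% of all genes tested. This was Prkaa1, a catalytic subunit of the AMP-activated kinase, at 25.9, 23.3 and 23.9 CPM in t-PBS and 21.9, 17.7 and 20.6 CPM in t-DHEA rats, without overlap (-0.28 ± 0.11, adjusted p = 0.957 with edgeR). Leaving out rat 1 or 3 of the t-PBS group, or rat 2 or 3 of the t-DHEA group, ended the call, and with all 6 livers it was lost in DESeq2 and in edgeR's likelihood-ratio test. Ppara itself was at 24.3, 25.8 and 22.2 CPM and at 19.4, 23.0 and 21.2 CPM (-0.18 ± 0.11, adjusted p = 0.986). Its ranges overlapped through t-DHEA rat 2.

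Known targets of PPARα outside the set gave 18 tested genes, 8 positive and 10 negative (median -0.0071), of which 2 met the criteria, both downwards. Plin2, which coats lipid droplets, fell from 158, 161 and 153 CPM in t-PBS to 111, 131 and 104 CPM in t-DHEA rats, with no overlap (-0.45 ± 0.11, adjusted p = 0.796 with edgeR). No omission of a single liver ended this call, with log2 differences between -0.55 and -0.37. Txnip, an inhibitor of glucose uptake and thioredoxin, was at 142, 136 and 188 CPM and at 129, 120.2 and 104 CPM (-0.40 ± 0.14, adjusted p = 0.930), and the call ended when rat 3 of either group was left out. The count of targets meeting the criteria was 1 in these fits and with the replicate block, and 4 when t-DHEA rat 2 was omitted.

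Partners of the mitochondrial route outside the set gave 26 tested genes of 28 named, 13 positive and 13 negative, with a median of 0.0046, and 0 met the criteria. Hibch, of valine breakdown, was under 0.05 in its unadjusted p (0.0455 with edgeR), but its log2 difference of 0.25 was below the 1.2-fold threshold, and it was named after its values were seen. The count was 2 when t-PBS rat 3 was omitted and 1 on omission of t-DHEA rat 1 or 2. Peroxisomal partners gave 22 tested genes of 24 named, 9 positive and 13 negative, with a median of -0.012, and 0 met the criteria. That count was 3 with the replicate block, 3 when t-DHEA rat 2 was omitted, and 1 in DESeq2 and on omission of rat 1 of either group or of t-DHEA rat 3. With rat 3 of the t-PBS or of the t-DHEA group omitted, 5.5% and 5.02% of all genes tested met the criteria.

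The rats of the t-DHEA group differed in how often they held the extreme value of a gene. t-DHEA rat 1 had the lowest value of the 6 livers in 14 of the 28 genes and the highest in 0. t-DHEA rat 3 had the highest in 14 and the lowest in 1. Over all genes tested, t-DHEA rat 1 was lowest in 17.7% and t-DHEA rat 3 highest in 15.4%. Measured from the t-PBS mean of each gene, the median deviation of the 28 genes was -0.16 in t-DHEA rat 1 and 0.11 and 0.16 in t-DHEA rats 2 and 3 on the log2 scale, against -0.042, -0.036 and 0.068 in t-PBS rats 1, 2 and 3. The share of normalised counts on the set was 0.483%, 0.585% and 0.587% in t-DHEA rats and 0.525%, 0.523% and 0.569% in t-PBS rats. t-DHEA rat 1 lay below both other t-DHEA livers in 23 of the 28 genes (82.1%), beside 34.6% of all genes tested and 37.7% of the 4907 genes with a mean of at least 20 CPM. These genes share their libraries, so the counts describe 1 liver and are not separate observations.

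**Figure D5:**
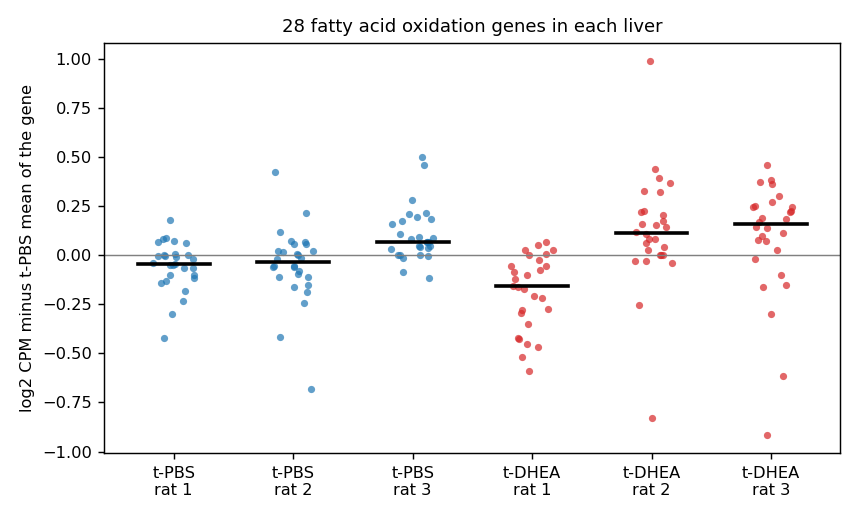
Deviation of each of the 28 genes from its own t-PBS mean (log2 CPM) in each liver; each point is a gene, the black bars are medians, and points are spread sideways for legibility. The medians are between -0.042 and 0.068 in t-PBS livers, -0.16 in t-DHEA rat 1, and 0.11 and 0.16 in t-DHEA rats 2 and 3.

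Leaving out t-DHEA rat 1 brought 4 of the 28 genes within the criteria, all upwards, where 6.01% of all genes met them. They were Acadl (log2 difference 0.30, adjusted p = 0.766 with edgeR), Slc25a20 (0.29, adjusted p = 0.775), Crot (0.40, adjusted p = 0.733) and Eci1 (0.39, adjusted p = 0.745). The group then held 2 livers, whose spread was pooled with that of the t-PBS livers. The rat left out was often the lowest liver in these same genes. A shift upwards therefore follows from its omission and is no separate support for a difference.

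Genes that respond to feeding and to the hour of the day also differed between these livers. Fasting genes summed to 2484, 3047 and 3359 CPM in t-PBS and to 2061, 3603 and 4997 CPM in t-DHEA rats 1, 2 and 3. Feeding genes summed to 3042, 6243 and 5316 CPM and to 5802, 3603 and 4348 CPM. The lowest fasting sum of all livers was that of t-DHEA rat 1, while the highest and the lowest feeding sums were those of t-PBS rats 2 and 1. Of the fasting genes 4 of 16 tested rows met the criteria, led by Klf15, a transcription factor of amino acid breakdown (42.5, 41.4 and 53.6 CPM against 74.7, 62.2 and 78.3 CPM, 0.65 ± 0.13, adjusted p = 0.796 with edgeR), and Tat, which degrades tyrosine (0.68 ± 0.19, adjusted p = 0.805). Neither call ended with any single liver left out, and Txnip was the only one of the 4 that was lower. The count of 4 became 2 without t-PBS rat 3 and with the replicate block. Of 13 feeding gene rows, 3 were positive and 10 negative (median -0.29), and the regulator of lipogenesis Srebf1 met the criteria in the positive direction (232, 241 and 324 CPM against 491, 272 and 362 CPM, 0.50 ± 0.21, adjusted p = 0.957), but no longer when rat 1 or 2 of the t-PBS group, or rat 1 or 3 of the t-DHEA group, was left out. The feeding values rested on single livers: on omission of rat 1 or rat 2 of the t-PBS group the median was -0.51 or -0.042, and on omission of t-DHEA rat 1 it was -0.57. The count meeting the criteria was 5, 0 and 3 with t-PBS rats 1, 2 and 3 omitted in turn, and 2, 1 and 0 with t-DHEA rats 1, 2 and 3 omitted. Clock genes in phase with Dbp summed to 256, 256 and 369 CPM in t-PBS and to 489.7, 302 and 499.8 CPM in t-DHEA rats, with 10 of 10 tested positive and 5 meeting the criteria (3 on omission of rat 1 of either group or of t-DHEA rat 3, and 8 when t-DHEA rat 2 was omitted). Of those in phase with Arntl, 4 of 6 were negative and 1 met the criteria (3 when t-PBS rat 3 was omitted, and 2 on omission of rat 2 of either group), and the list summed to 192 to 239 CPM in t-PBS and 162 to 203 CPM in t-DHEA livers. The part of feeding state, hour of collection and the cell types above in the values of the 28 genes was not tested.

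Promoters from RefSeq (GRCr8, 250 bases before to 50 bases after the start site) were matched to 25 of the 28 genes. GC boxes (GGGCGG, either strand) were in 20 of them (80.0%), beside 60.8% of 9673 promoters of genes tested and 33.1% of all 33469. A CCAAT box was in 12 (48.0%), beside 37.3% and 37.5%. The half-site of nuclear receptors, AGGTCA, was in 5 (20%: Acadvl, Echs1, Eci1, Hadhb and Hsd17b4), beside 12.5% and 16.2%. A direct repeat of that half-site with a spacer of 1 base (DR1), to which PPARα binds, was in 0 of the 25 windows and in 0.0414% of those of genes tested. The clock motifs were likewise in 0 of 25, the E-box CACGTG being in 9.03% and the D-box TTATGTAA in 0.496% of promoters of genes tested. The cAMP response element TGACGTCA was in 2, Acadm and Ppargc1a, beside 2.96%, and the TATA box TATAAA in 1, Echs1, beside 7.0%. All motifs were searched on both strands, and DR1 contains the half-site. These are matches of letters in a short window and say nothing of binding.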

How the data were processed

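The authors filtered paired reads from liver mRNA with Seqtk, mapped them to Rnor_6.0 with HISAT2 2.0.4, counted fragments per gene with StringTie 1.3.0 and deposited raw counts and FPKM for each liver. The length of each gene was inferred from its deposited FPKM, counts and library totals, with no separate source of gene length. With that length, FPKM followed from count and library total in every liver to a relative error of at most 0.00079. The deposited FPKM thus carries no other normalisation between livers, while the gene lengths behind it were not checked independently. The annotation release and strandedness are not given in the sources used here.

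Here, counts of 12210 genes passing edgeR's filter were fitted with TMM factors and the quasi-likelihood test (edgeR 4.0.16, R 4.3.3), without covariates, over all 6 livers. The study states edgeR on FPKM, but a count model needs counts. Standard errors and 95% intervals came from the test statistic. The alternatives were DESeq2 1.42.0, other size factors, the likelihood-ratio test, other filters, limma 3.58.1 on log2(FPKM + 0.1) or log2(FPKM + 1), a replicate block, each liver left out, and fold-changes above 1.5 and 2. The tests were checked on simulated data. No libraries were duplicates. Where a count is 0, up to 3 counts are allowed (0.210 to 0.243 CPM), and this floor covers counting error only.

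The members and lists were chosen with earlier results of these data known. Values per liver are given for members whose groups did not overlap and for genes fixed for their role. From each list up to 3 genes that met the criteria are named by lowest p, and Ppara in any case. Some genes of the lists are not reported here and were left out of the list counts. Genes outside this rule, such as Hibch, Crat, Crot and Eci1, were named after their values were seen. Lists were described by counts and medians, with no set test. The counts meeting the criteria stand beside the 4.95% of all genes tested that met them.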

Additional observations from a re-analysis of the deposited data

How the results depend on the processing

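The number of the 28 genes meeting the criteria was 0 in most alternatives, 1 with library totals only, 1 and 1 in limma on log2(FPKM + 0.1) and log2(FPKM + 1), and 0 to 4 when a liver was left out. Their median log2 difference moved by less than the spread between livers in every alternative, but was -0.030 and -0.029 in limma and ran from -0.0075 to 0.13 with a liver left out. Of 420 refitted differences, 369 kept direction and side of the threshold, 11 passed it and 40 changed sign, in 14 genes. Acaa1a was -0.022 with library totals only and -0.019 and -0.018 in limma, and Crat -0.053 and -0.045 in limma. Cpt2 was 0.0017 without a filter. Replicate numbers did not pair the livers (correlations of same-numbered livers -0.059 to -0.055, of others -0.068 to 0.116), and with a replicate block 0 of the 28 met the criteria, while Crat was -0.042 and, of the genes named from other lists, Acss1, Srebf1 and Txnip lost their call, whereas 3 peroxisomal partners met the criteria against 0 without the block, and 2 clock genes in phase with Arntl against 1. With each liver left out in turn, the log2 differences ran from -0.050 to 0.129 for Acaa1a, -0.151 to 0.142 for Acaa2, -0.011 to 0.183 for Acads, -0.231 to 0.118 for Acot2, -0.198 to 0.153 for Bdh1, -0.064 to 0.071 for Cpt2, -0.591 to 0.375 for Crat, -0.0041 to 0.293 for Decr1, -0.119 to 0.071 for Decr2, -0.061 to 0.386 for Eci1, -0.041 to 0.016 for Etfa, -0.085 to 0.032 for Etfdh, -0.132 to 0.112 for Hadhb and -0.447 to 0.040 for Ppargc1a. The cause of these moves was not tested. Of 135 refitted differences of the 9 genes named from other lists that met the criteria, 91 kept the call and 44 lost it. With 3 livers per group, the 95% intervals of 23 of the 28 genes lay within 1.5-fold and those of 3 within 1.2-fold.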

Other observations

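Relative to Cpt1a, several other genes of the set were higher in t-DHEA livers. This was noticed after the values were seen, and is a description with no test. The FPKM ratio of Acadm to Cpt1a was 4.50, 4.20 and 4.93 in the t-PBS livers, by rat number, against 6.24, 5.39 and 6.62 in the t-DHEA livers. That of Acadl was 4.15, 4.53 and 4.73 against 5.49, 5.26 and 7.16, and that of Acadvl 2.19, 2.24 and 2.60 against 3.35, 2.99 and 3.23. In each ratio all t-DHEA livers lay above all t-PBS livers, t-DHEA rat 1 included, whose Acadm and Acadl levels by themselves lay among or below the t-PBS livers. Of 27 ratios to Cpt1a, 7 had groups that did not overlap, all higher in t-DHEA livers (those of Slc25a20, Hadha, Hsd17b4 and Acat1 as well). Of all 378 pairs among the 28 genes, 28 had groups that did not overlap (7.41%), these 7 included. Etfdh also took part in 7 such pairs, Acadvl in 6 and Acadm in 5. Ratios that share Cpt1a are not independent of each other. Cpt1a was picked as the divisor after its values were seen. It had the lowest unadjusted p of the set in edgeR's quasi-likelihood test, with a negative fitted value, which raises any ratio over it in t-DHEA livers. The share of such pairs among all genes tested was not computed.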
